A study of Caenorhabditis elegans with 2 samples.

Results

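The regions described here are candidate binding sites of RCOR-1::eGFP, a tagged chromatin protein, whose summit, the position of highest signal, lay within 500 bp of the 5' end of an annotated snoRNA gene. They numbered 332 of the 45081 candidate regions on the nuclear chromosomes, and of 45103 with the mitochondrial ones. They were chosen by position alone, from the Ensembl annotation of genome build WBcel235 (ce11) and the summits in the list made between both replicates. Each region took the class of the snoRNA gene whose 5' end was nearest its summit. The gene was intronic where it lay wholly in an intron of a protein-coding transcript of its own strand, and independent where it overlapped no protein-coding gene on either strand. It was opposite-strand intronic where the host gene ran the other way, and exon-overlapping in the remaining cases, where it met a protein-coding exon or lay only partly in a gene.

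The series holds 1 group of whole young adult Caenorhabditis elegans, aged 65 h, with 2 biological replicates. The worms were of strain RW12222, in which a CRISPR insertion (st12222) adds TY1, EGFP and 3xFLAG tags to rcor-1 at its own locus on chromosome I, and they were synchronised as starved L1 larvae after bleaching. Chromatin sonicated to 200 to 800 bp was precipitated with an antibody against GFP and sequenced (ChIP-seq). There is no group of another genotype, and the labels name a control experiment that was not analysed here, so all comparisons are among regions of 1 experiment and the whole-animal signal cannot be assigned to a tissue.

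RCOR-1 belongs to the CoREST proteins, which hold an LSD1-type histone demethylase and a histone deacetylase together in animal corepressor complexes. Small nucleolar RNAs (snoRNAs) guide chemical changes of ribosomal and spliceosomal RNA: box C/D snoRNAs direct 2'-O-methylation and box H/ACA snoRNAs direct pseudouridylation. In animals many snoRNAs lie in introns and are released from the host's spliced-out intron, while others are transcribed from promoters of their own. In worms an intronic snoRNA gene may also have a promoter of its own.

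The 100 bases upstream of 8 snoRNA genes are shown. Of these, 6, at strong called regions, each hold 1 or 2 of 3 short elements that are taken up again after the values, and 2 are given for contrast. Capitals mark exact matches on the strand of the gene to element 1 (GNAACNCG), element 2 (TGTCNGC) and element 3 (GTTCNANNC), where N is any base. Each sequence ends 1 base before the annotated 5' end and comes from the ce11 reference. The first pair lies upstream of intronic genes, ZK994.7 at chrV:8500479-8500578 on the plus strand and C08D8.3 at chrV:8349008-8349107 on the plus strand. The next 3 lie upstream of independent genes, T08B6.64 at chrIV:4880851-4880950 on the minus strand, Y53F4B.47 at chrII:15025894-15025993 on the minus strand and Y75B12B.12 at chrV:15191094-15191193 on the minus strand. T03F7.8 is opposite-strand intronic, at chrV:11314158-11314257 on the plus strand. The last pair holds no exact match in the bases shown, though K11C4.6 holds a stretch that differs from element 3 only in its last base. C06A1.9 is intronic, at chrII:10563065-10563164 on the minus strand, and its region was the strongest of all. The summit of that region lay 500 bp upstream of the snoRNA, so the line for C06A1.9 does not show the sequence under it. K11C4.6 is intronic, at chrV:6888976-6889075 on the plus strand, and its region missed the threshold.
ZK994.7: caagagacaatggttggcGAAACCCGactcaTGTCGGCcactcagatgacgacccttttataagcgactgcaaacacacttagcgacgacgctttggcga
C08D8.3: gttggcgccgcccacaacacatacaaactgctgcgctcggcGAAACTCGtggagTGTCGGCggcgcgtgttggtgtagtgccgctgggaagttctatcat
T08B6.64: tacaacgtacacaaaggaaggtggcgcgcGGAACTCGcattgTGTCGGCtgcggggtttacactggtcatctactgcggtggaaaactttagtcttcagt
Y53F4B.47: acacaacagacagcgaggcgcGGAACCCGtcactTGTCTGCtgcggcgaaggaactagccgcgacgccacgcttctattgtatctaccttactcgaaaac
Y75B12B.12: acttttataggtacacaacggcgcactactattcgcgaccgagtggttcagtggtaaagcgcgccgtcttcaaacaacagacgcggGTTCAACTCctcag
T03F7.8: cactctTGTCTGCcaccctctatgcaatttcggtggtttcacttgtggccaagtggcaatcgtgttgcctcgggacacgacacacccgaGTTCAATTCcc
C06A1.9: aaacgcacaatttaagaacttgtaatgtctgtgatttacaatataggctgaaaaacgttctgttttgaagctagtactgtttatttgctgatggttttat
K11C4.6: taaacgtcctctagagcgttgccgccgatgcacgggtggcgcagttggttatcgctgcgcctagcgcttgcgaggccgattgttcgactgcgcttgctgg

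The called share at snoRNA genes was higher than in the list as a whole. A region was counted as called where its irreproducible discovery rate (IDR), the authors' measure of how poorly a region's rank repeats between replicates, was 0.01 or less. Of the 332 regions 119 were called, or 35.8% (95% Wilson interval 30.9 to 41.1%), against 2390 of all 45081 nuclear regions, or 5.3%. The shares were 304 of 570 regions (53.3%) at tRNA genes, 56 of 107 (52.3%) at snRNA genes and 1185 of 13170 (9.0%) at protein-coding 5' ends. The median signal was 39.5 at snoRNA genes and 25.7 over all nuclear regions, in the authors' own unit, which the files do not define. The lists carry no read counts: the sequencing depth is unknown, and no counting error can be given for a single region's signal.

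Seen from the genes, 249 of the 346 annotated snoRNA genes (72.0%) had a region and 115 (33.2%, 95% Wilson interval 28.48 to 38.36%) had a called one. By chromosome the called share of regions ran between 26.9% on III and 48.3% on IV. A called region lay at 45 of 143 intronic genes (31.5%), 47 of 124 independent genes (37.9%), 13 of 27 opposite-strand intronic genes (48.1%) and 10 of 52 exon-overlapping genes (19.2%). No such share over other kinds of gene is given here, so these gene shares cannot be called high or low for snoRNA genes. The members were not independent of each other: 77 genes were nearest to more than 1 region, 23 regions lay within 500 bp of more than 1 snoRNA gene, and 35 pairs of neighbouring regions overlapped. In 25 regions, 16 of them intronic and 3 independent, a stronger region carried the same pair of replicate values, and 6 of these 25 were called although their own combined signal was at most 13.6. An example is the second region at the exon-overlapping gene W01C9.6, with a signal of 6.23 beside a neighbour of 80.4.

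The main comparison asked whether RCOR-1 signal differed between regions at intronic and at independent snoRNA genes. The intronic class had 147 regions with a median combined signal of 36.6 (quartiles 25.6 and 68.4), and the independent class had 112 with a median of 47.9 (quartiles 30.2 and 126). In replicate 1 the medians were 18.9 for intronic and 23.3 for independent regions, and in replicate 2 they were 24.4 and 30.8 in the same order. Both replicates therefore placed the intronic median lower, while the ranges of the classes overlapped almost wholly, from 3.10 to 669 for intronic regions and from 2.29 to 507 for independent ones. Among called regions alone the medians were 128 for the 44 intronic and 142 for the 49 independent regions, and among those not called they were 30.5 and 31.4 in the same order.

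**Figure D1:**
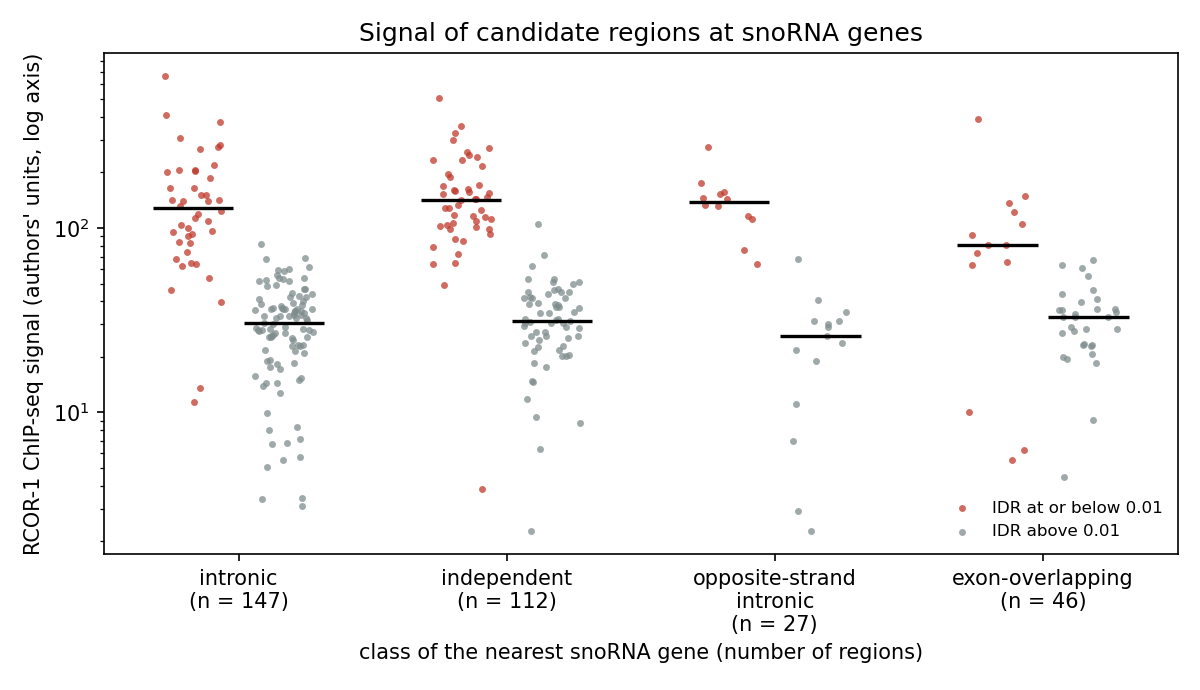
Combined signal of each region in the authors' unit (log axis) by class of the nearest snoRNA gene, with called regions left of those not called in each class and a black bar at each median. Called intronic regions have a median of 128 and called independent regions one of 142, while the medians of the regions not called are 30.5 and 31.4; the 6 called regions at or below 13.6 share their replicate values with a stronger neighbour.

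The share called was 44 of 147 for intronic regions (29.9%, 23.1 to 37.8%) and 49 of 112 for independent regions (43.8%, 34.9 to 53.0%). The log2 odds ratio, intronic over independent, was -0.86 ± 0.38 (SE; two-sided Fisher's exact p = 0.026). After Benjamini-Hochberg adjustment over the 4 comparisons of shares made here p was 0.11, so the difference missed the threshold of 0.05. It passed the threshold in each replicate's own list, where called means IDR 0.01 or less in that list. Such a list holds 1 replicate, so its IDR cannot measure how a rank repeats between the 2 replicates. The calls in these lists are therefore not the same measure as the main one. In the list of replicate 1 the called share was 33 of 128 intronic regions (25.8%) and 47 of 115 independent regions (40.9%), beside 4.21% of all its nuclear regions. In the list of replicate 2 it was 34 of 120 intronic regions (28.3%) and 44 of 97 independent regions (45.4%), beside 4.65% of all. Those tests gave log2 odds ratios of -0.98 ± 0.40 (SE, adjusted Fisher's exact p = 0.038) in replicate 1 and -1.06 ± 0.41 (adjusted Fisher's exact p = 0.043) in replicate 2. With 1 region kept per snoRNA gene the ratio was -1.26 ± 0.43 (33 of 104 intronic against 45 of 85 independent, adjusted Fisher's exact p = 0.019). The region kept was not always the called one. A called region was nearest to 43 of these 104 intronic and 47 of these 85 independent genes. With 1 region kept per host gene the ratio was -0.65 ± 0.42 (30 of 91 intronic against 49 of 112 independent regions, adjusted Fisher's exact p = 0.36). More than 30 hosts had a called region, since only 1 host had more than 1 of the 44 called intronic regions. Counted by any called region, the share of the 91 hosts was slightly above the 43.8% of independent regions, so the direction turned. A host can hold several regions, which raises its share. Shares of genes or hosts with any called region were not tested. Without the 25 regions that repeat a stronger region's values the ratio was -0.73 ± 0.39 (adjusted Fisher's exact p = 0.25). Regions are not replicates, and these p-values measure the spread over regions, not over animals.

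**Figure D2:**
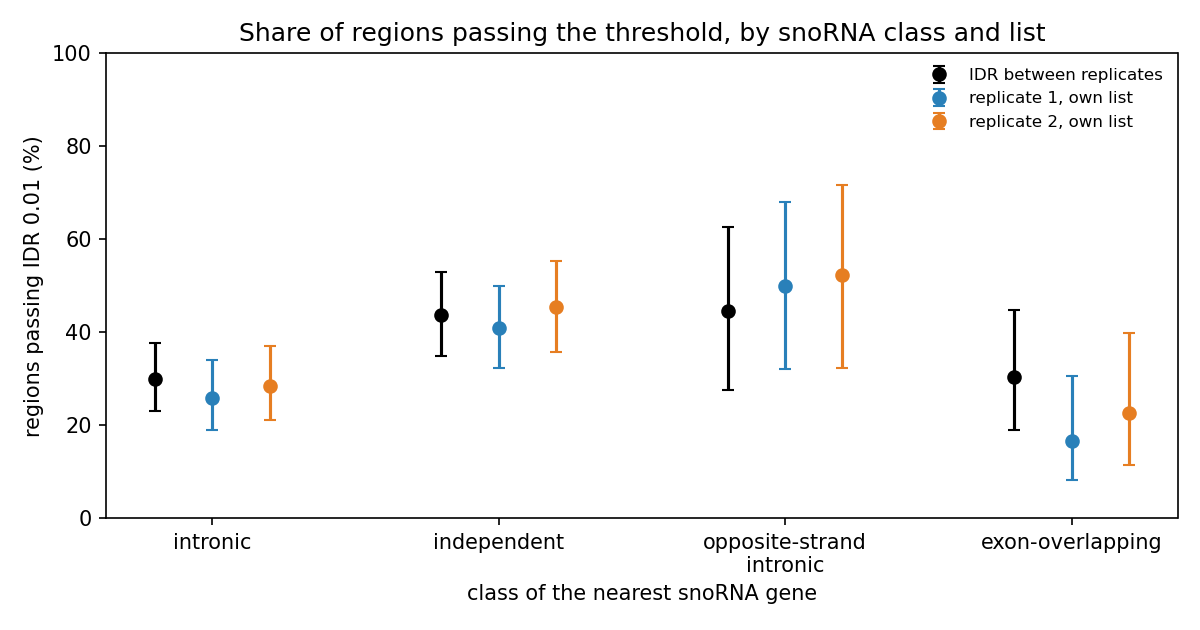
Percentage of regions with an IDR of 0.01 or less by class of the nearest snoRNA gene, for the list made between replicates and for each replicate's own list, with 95% Wilson intervals. The intronic share is 29.9%, 25.8% and 28.3% in the 3 lists, and the independent share is 43.8%, 40.9% and 45.4%.

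Opposite-strand intronic genes lie in a host's intron without being part of its transcript. The called share was 44 of 147 for same-strand intronic regions and 12 of 27 for opposite-strand ones (44.4%, 27.6 to 62.7%). The log2 odds ratio, same strand over opposite strand, was -0.91 ± 0.61 (SE; Fisher's exact p = 0.18, adjusted p = 0.36), which missed the threshold. It was -1.46 without replicate 1 (adjusted Fisher's exact p = 0.083) and -1.51 without replicate 2 (adjusted Fisher's exact p = 0.038). The 12 called opposite-strand regions ranged in combined signal from 64.0 at R08C7.19 to 273 at T03F7.8. T03F7.8 lies antisense in cutl-18, a cuticlin-like gene, and its region had 114 in replicate 1 and 150.4 in replicate 2, with the summit 37 bp upstream of the snoRNA. The next were B0334.12 in twk-5, a potassium channel gene, with 75.2 and 94.7 in replicates 1 and 2, and ZK484.9 in haf-9, an ABC transporter gene, with 74.6 and 75. Of exon-overlapping regions 14 of 46 were called (30.4%), led by C51F7.4 on chromosome V with a combined signal of 388. This is the region that lies within 500 bp of snoRNA genes of 2 classes, since the intronic gene C51F7.3 is also there.

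Of the 8 strongest called intronic regions, 5 had the summit inside the snoRNA's own intron and 3 had it outside. ZK994.7 is the strongest of the first kind. Its region, chrV:8500451-8500662, had a combined signal of 409.9, with 156 in replicate 1 and 256 in replicate 2. The snoRNA, of 67 bp on the plus strand, sits in a 341-bp intron of pxn-1, which encodes a peroxidasin of the extracellular matrix, 5690 bp into the gene. The summit lay 27 bp upstream of the snoRNA 5' end and no protein-coding 5' end was within 500 bp.

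The others inside their intron also had the summit near the snoRNA 5' end. Y37E3.20 on chromosome I, in a 700-bp intron of pcyt-2.1, a gene of phosphatidylethanolamine synthesis, had 139.6 in replicate 1 and 139 in replicate 2. Its summit lay 12 bp upstream of the snoRNA and, unlike that of ZK994.7, within 500 bp of a protein-coding 5' end, 349 bp upstream of one of pcyt-2.1. C08D8.3, a box C/D-type snoRNA in a 303-bp intron of C08D8.1, had 98.4 in replicate 1 and 177 in replicate 2, with the summit 15 bp upstream. C16D9.11, in an intron of rol-3, a receptor tyrosine kinase gene, had 138 and 139 in the 2 replicates, with the summit 50 bp upstream. W04D2.7, in a 1433-bp intron of inx-11, which encodes a gap junction innexin, had 102 and 107, with the summit 7 bp downstream of the 5' end. ZK994.7, C08D8.3, C16D9.11 and W04D2.7 lay 3349 to 9440 bp from the 5' end of their host gene, with no protein-coding 5' end within 500 bp of the summit.

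The remaining 3 had their summit nearer the 5' end of a protein-coding gene than that of the snoRNA. C06A1.9 had the highest signal of all 332 regions, 669 combined, with 278 in replicate 1 and 395 in replicate 2. Its summit lay 500 bp upstream of the snoRNA, at the edge of the window, and 157 bp upstream of a 5' end of its host cdc-48.1, which encodes a p97-type AAA ATPase. Y24D9A.9, in rpl-7A, had 207 in replicate 1 and 179 in replicate 2, with the summit 356 bp upstream of the snoRNA and 74 bp upstream of the host's 5' end. F54E7.10, in rps-12, had 139.5 in replicate 1 and 178 in replicate 2, with the summit 138 bp upstream of a 5' end of ska-3, a kinetochore gene. For these 3 the snoRNA and the protein-coding promoter cannot be told apart by the window used.

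All 8 strongest called independent regions had the summit within 100 bp upstream of the snoRNA. F59C6.15 on chromosome I led, with 197 in replicate 1, 295 in replicate 2 and 507 combined, and its summit lay 71 bp upstream. T26A8.6 followed with 159 and 187 in replicates 1 and 2, with the summit 11 bp upstream, and Y53F4B.47 with 143 and 194, with the summit 65 bp upstream. T08B6.64 had 120.1 in replicate 1 and 179.7 in replicate 2, with the summit 27 bp upstream. Y67A10A.14, Y75B12B.12, M03D4.78 and Y74C9A.6 had combined signals of 269.9, 259.7, 249 and 243. Of the 8, only Y53F4B.47, Y75B12B.12 and M03D4.78 had a protein-coding 5' end within 500 bp, at cmtr-1, Y75B12B.11 and zen-4, with the summit 156 to 281 bp upstream of it. The higher of the replicate values was that of replicate 2 in all 8.

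Summits of called regions lay just upstream of the snoRNA more often than those of other regions. The summit lay up to 100 bp upstream of the snoRNA 5' end in 66 of 119 called regions (55.5%, 46.5 to 64.1%) and in 31 of 213 regions that were not called (14.6%, 10.4 to 19.9%). In called opposite-strand intronic regions it lay there in 7 of 12 (58.3%) and in called exon-overlapping regions in 4 of 14 (28.6%). In called intronic regions it lay there in 22 of 44 (50%) and in called independent regions in 33 of 49 (67.3%). Of these, 20 intronic and 20 independent summits fell in the last 50 bp before the snoRNA. Among regions not called, 13 of 103 intronic (12.6%) and 7 of 63 independent ones (11.1%) had the summit in those 100 bp, and no 50-bp bin held more than 8 intronic or 7 independent summits. The median offset of called regions was -27 bp for intronic, -35 bp for independent and -17 bp for opposite-strand intronic genes, where a negative value is upstream. The position was measured in the same experiment that ranked the regions, so the share is a description.

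**Figure D3:**
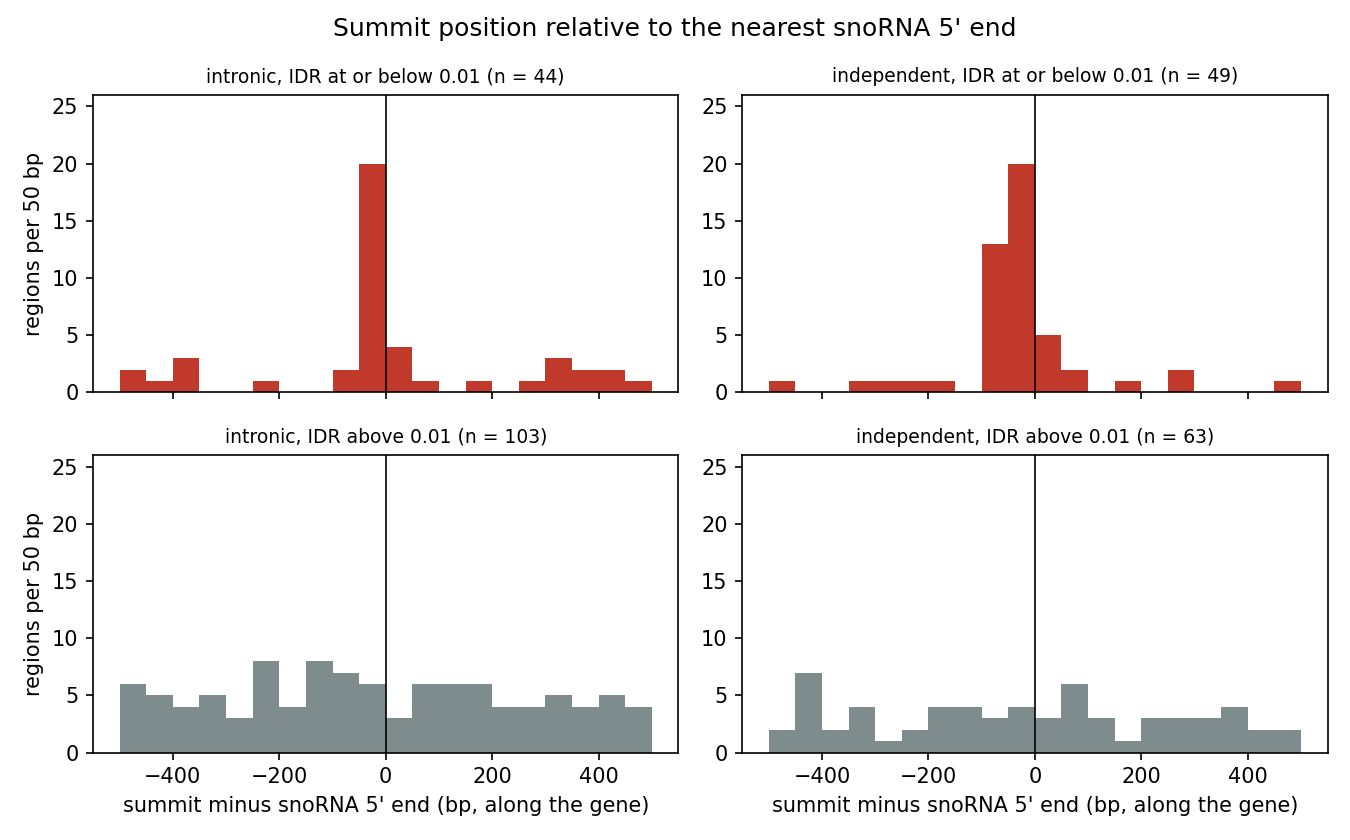
Number of regions per 50 bp by distance of the summit from the nearest snoRNA 5' end, along the direction of the gene, for intronic genes on the left and independent genes on the right, with called regions above those not called. Called summits pile up in the 50 bp before the 5' end, 20 in each class, while other summits are spread over the window.

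Among called intronic regions 31 of 44 had the summit in the intron that holds the snoRNA, against 46 of 103 that were not called. The 45 intronic genes with a called region lay in introns of median length 284 bp, 131 bp from the 5' splice site and 50 bp from the 3' splice site. The 98 without one lay in introns of median length 516 bp, 124.5 bp from the 5' splice site and 174 bp from the 3' splice site. The median distance into the host gene was 1430 bp for genes with and 1528.5 bp for genes without a called region.

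Ribosomal protein genes hosted 26 of the intronic regions, of which 8 were called (30.8%), and other genes hosted 121, of which 36 were called (29.8%). In 7 of the 8 called regions at ribosomal protein hosts the summit was nearer a protein-coding 5' end than the snoRNA. Of these 8 summits 4 lay upstream and 4 downstream of the snoRNA 5' end, at a median distance of 383 bp and with none within 100 bp. At the other hosts the summit was nearer a protein-coding 5' end in 4 of 36 called regions, the median distance was 41 bp and 27 of 36 lay within 100 bp. The box C/D core protein gene nol-56 hosts 4 snoRNA genes, whose 7 regions had combined signals of 15.4 to 61.8, with none called. The strongest of them is the region at the 5' end of nol-56 itself. The 91 hosts with a region included 39 with more than 1 region, and 1 host had more than 1 called region.

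The called share of regions near a protein-coding promoter could not be told from that of the others. It was 40 of 103 regions (38.8%, 30.0 to 48.5%) with a protein-coding 5' end within 500 bp of the summit and 79 of 229 (34.5%, 28.6 to 40.9%) without one. The log2 odds ratio, with over without, was 0.27 ± 0.35 (SE; Fisher's exact p = 0.46, adjusted p = 0.46). Without replicate 1 the direction turned, at -0.18 ± 0.39, and without replicate 2 it was 0.12 ± 0.37. Without such a 5' end, 27 of 94 intronic regions (28.7%) and 35 of 85 independent regions (41.2%) were called. With one, 17 of 53 intronic (32.1%) and 14 of 27 independent regions (51.9%) were called.

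Box types were read from the gene sequence alone. A gene was C/D-type with TGATGA in its first 25 bases and CTGA in its last 25, and H/ACA-type with ACA starting in its last 8 bases. This typed 15 genes as C/D and 91 as H/ACA, and left 240 of 346 untyped. The H/ACA rule is loose: 26.9% of all gene ends held the ACA, as did 10.4% of windows taken 50 bp past the genes. Of C/D-type regions 8 of 15 were called (53.3%, 30.1 to 75.2%) and of H/ACA-type regions 36 of 93 (38.7%, 29.4 to 48.9%), with a log2 odds ratio, C/D over H/ACA, of 0.84 ± 0.78 (SE; Fisher's exact p = 0.40, adjusted p = 0.46). The ratio was 1.25 without replicate 1 and 1.47 without replicate 2, and over 11 alternatives it ran from 0.50 to 2.19 with adjusted Fisher's exact p-values of 0.081 to 0.56. Within the intronic class 2 of 8 C/D-type (25%) and 22 of 71 H/ACA-type regions (31.0%) were called, so the direction there was the other way. Within the independent class 5 of 5 and 10 of 13 were called. Of untyped regions 75 of 224 (33.5%) were called, with 20 of 68 in the intronic and 34 of 94 in the independent class.

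The genes at 3 of the 8 called C/D-type regions, the strongest of these, the third and the fourth by signal, are shown whole as examples, with the C box letters TGATGA and the D box letters CTGA in capitals, from the ce11 reference. C08D8.3 lies at chrV:8349108-8349187 on the plus strand in an intron, and W03C9.9 at chrII:11960898-11960959 on the plus strand and C16D9.10 at chrV:8247888-8247961 on the minus strand are independent. The combined signal was 275 at C08D8.3 and 189 at C16D9.10, and at W03C9.9 replicate 1 had 114 and replicate 2 had 119.
C08D8.3: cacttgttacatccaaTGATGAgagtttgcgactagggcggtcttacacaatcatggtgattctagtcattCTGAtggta
W03C9.9: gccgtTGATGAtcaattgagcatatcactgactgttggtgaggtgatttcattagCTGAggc
C16D9.10: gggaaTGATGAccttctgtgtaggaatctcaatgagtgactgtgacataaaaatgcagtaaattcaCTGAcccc

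The 3 upstream elements shown at the start were chosen after the values were seen, from words of 6 to 8 bases that differed between snoRNA genes with and without a called region, so their shares describe these genes and were not tested. In the 120 bp upstream, on the strand of the gene, element 1 was found at 33 of 115 genes with a called region (28.7%) and 5 of 231 without one (2.16%). Element 2 was found at 32 (27.8%) and 4 (1.73%), and element 3 at 25 (21.7%) and 8 (3.46%), in the same order. In the same window of 19973 protein-coding genes the shares were 1.10%, 1.56% and 1.68% for elements 1, 2 and 3. On the opposite strand of the snoRNA genes with a called region the elements were found in 4.35%, 3.48% and 1.74%. Such genes also had a higher GC content, a median of 43.3% against 39.3% in genes without a called region, over 250 bp upstream to 50 bp downstream; its part in the element shares was not tested.

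The elements lay at preferred distances from the gene. In genes with a called region element 1 started at a median of -61 bp, element 2 at -49.5 bp and element 3 at -14 bp from the 5' end. In all 20 genes that held both element 1 and element 2, the second started 13 bases after the first. All 20 had a called region, which follows in part from how the elements were chosen. The spacing is visible in the lines for ZK994.7, C08D8.3, T08B6.64 and Y53F4B.47 above. Element 3 resembles the B box, the internal promoter of tRNA genes, and was found inside 587 of 612 tRNA genes (95.9%) of the same annotation. Element 1 or 2 was found upstream of 73 of 129 snRNA genes (56.6%), but both together at only 6 of them (4.65%).

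**Figure D4:**
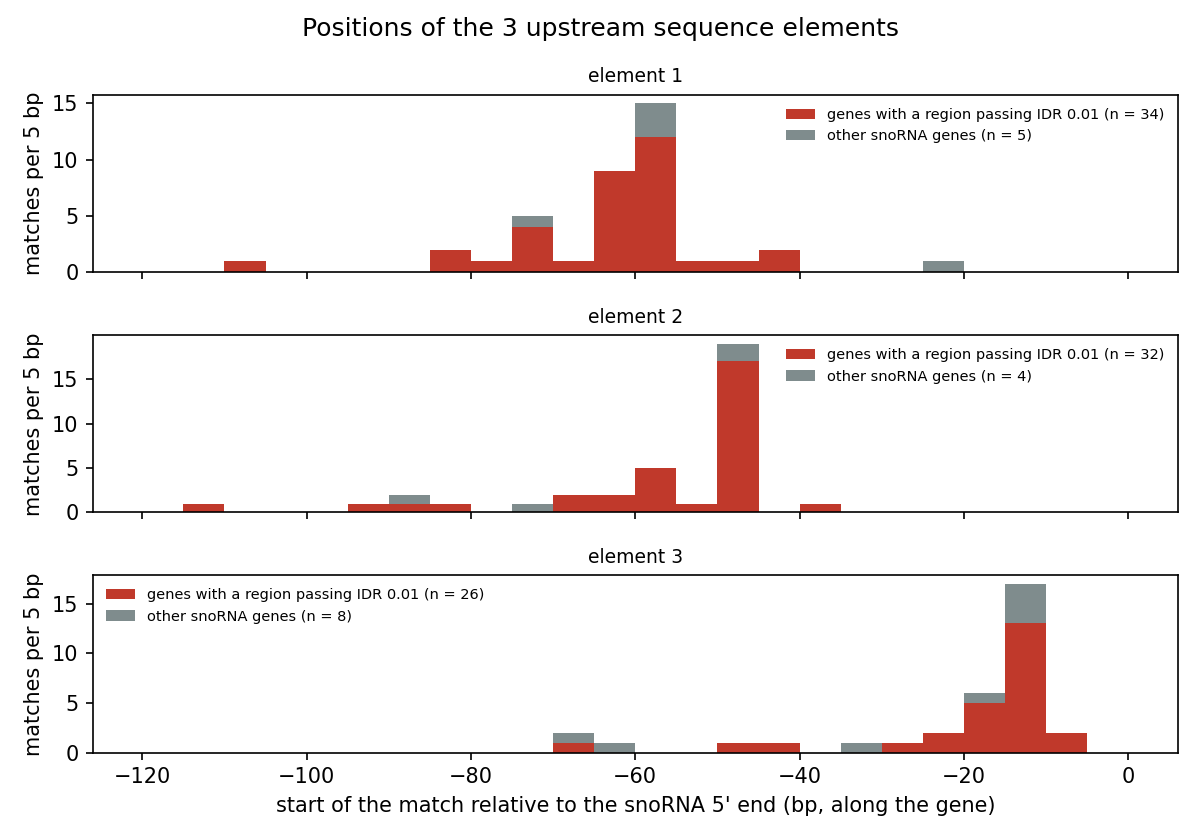
Start of each match of elements 1, 2 and 3 in the 120 bp upstream of snoRNA genes, in bins of 5 bp, for genes with a called region and for the other snoRNA genes. Matches of element 1 gather near -61 bp, of element 2 near -49.5 bp and of element 3 near -14 bp.

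Regions whose nearest gene had element 1 or 2, and not element 3, were called in 40 of 54 cases (74.1%), those with element 3 alone in 17 of 21 (81.0%), those with both kinds in 8 of 10 (80%) and those with none in 54 of 247 (21.9%). Within the intronic class the counts were 13 of 15 with element 1 or 2, 5 of 7 with element 3, 3 of 4 with both kinds and 23 of 121 with none (19%). Within the independent class they were 21 of 30, 8 of 8, 2 of 2 and 18 of 72 (25%). In all, 26 of 147 intronic regions and 40 of 112 independent regions lay at a gene with any of the 3 elements, and 21 of these 26 and 31 of these 40 were called. The elements were chosen because they differed between genes with and without a called region. Higher called shares at genes that hold them follow in part from that choice and were not tested. A further 4 motifs were searched in the window from 250 bp upstream to 50 bp downstream, on either strand. TATAAA was found at 31 of 115 genes with a called region (27.0%) and 55 of 231 without (23.8%), beside 37.9% of protein-coding genes. GGTTCGA, a core of the tRNA B box that overlaps element 3, was found at 12 (10.4%) and 8 (3.46%), beside 1.42%. GAGAGA was found at 27.0% and 23.8%, beside 21.8%, and CACGTG at 6.96% and 6.06%, beside 5.82%, in the same order.

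The 2 replicates ranked called regions more alike than the others. Spearman's rho between the replicate signals was 0.75 over the 332 regions, 0.79 over the 119 called and 0.22 over the 213 not called, beside 0.34 over all 45081 nuclear regions. Among called regions it was 0.86 for intronic and 0.79 for independent ones. The points share 2 libraries, and the IDR that made the call rewards matching ranks, so these are descriptions without a test. The signal was higher in replicate 2 in 246 of 332 regions, with a median ratio of 1.34, beside 1.37 over all nuclear regions.

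**Figure D5:**
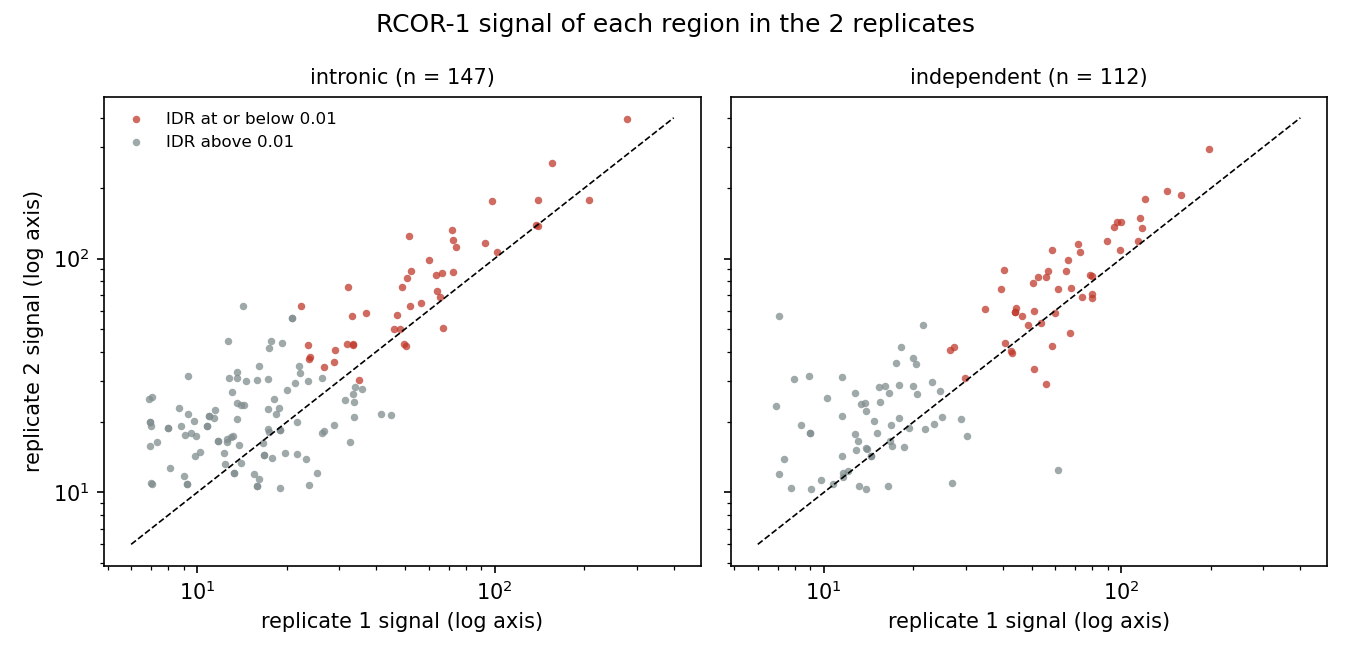
Signal of each region in replicate 1 (x, log axis) and replicate 2 (y, log axis) in the authors' unit, for intronic regions on the left and independent regions on the right, with the line of equal signal dashed. Called regions rank alike in both replicates (rho 0.86 and 0.79) and mostly sit above the line, 38 of 44 intronic and 38 of 49 independent ones, while the others form a cloud at low signal.

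Values near the threshold show what it divides. The closest called regions were C16A3.11, in rps-13, with 22.3 in replicate 1 and 62.8 in replicate 2, and an independent region at chrIV:16593010-16593289 with 56 and 29.1. The closest regions not called were C14C10.8, exon-overlapping, with 22.2 and 43.8, and Y24D9A.10, in rpl-7A, with 26.2 and 30.8. The strongest intronic region not called was K11C4.6, in the spectrin gene unc-70, with 20.9 in replicate 1 and 55.7 in replicate 2. The strongest independent one was M7.15, with 7.06 in replicate 1 and 56.7 in replicate 2. In these 4 regions not called, replicate 1 had the lower value.

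The proteins that bind snoRNAs were looked up by a fixed list of 8 core genes. All 8 had a region within 500 bp of a 5' end and 6 were called, beside 9.0% of single regions at protein-coding 5' ends; the strongest region of each gene was taken, which raises the first share. For box C/D particles, fib-1 (fibrillarin, the methyltransferase) had 68.2 in replicate 1 and 100 in replicate 2, nol-58 had 57.5 and 59.3, and snu-13 had 25.2 and 33.0, all called, while nol-56 with 33.9 and 28.2 was not. For box H/ACA particles, dkc-1 (dyskerin, the pseudouridine synthase) had 57.8 and 84.0, Y48A6B.3 (NHP2) had 35.4 and 55.9, and garr-1 (GAR1) had 27.0 and 41.4, all called, while nola-3 (NOP10) with 20.4 and 26.4 was not. Their combined signals ran from 42.5 to 166 with a median of 81.0, beside medians of 36.6 over intronic and 47.9 over independent snoRNA regions. The choice of each gene's strongest region raises the first median too. The summits were 90 to 466 bp upstream of the 5' end.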

How the data were processed

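ChIP-seq of RCOR-1::eGFP was analysed in 2 biological replicates of 1 group. The authors aligned reads to ce11 and ranked regions by IDR, according to the notes deposited with the files. No aligner or peak caller is named in the sources used here. Each region's deposited signal, combined and for each replicate, is the authors' measure of strength in an undefined unit and was used only to compare regions within a list. The deposited −log10 of the IDR set the call, at 2 or more. The deposited summit, in bp from the region's start, placed it. The columns with each replicate's signal carry no header. They were identified by matching records: 27951 of 45103 records of the first matched replicate 1's own list and 0 matched replicate 2's, and 27930 and 0 the other way round. Depth is unknown, since read totals were not used here, and intervals cover counting error only.

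Gene classes and sequences came from Ensembl release 115 and the ce11 reference. Fisher's exact tests (two-sided) compared class shares, with log2 odds ratios (0.5 added to each cell) and Benjamini-Hochberg adjustment over 4 comparisons. The labels call the samples biological replicates; p-values over regions measure the spread between regions, which share libraries, genes and hosts. The members, lists, classes and tests were chosen with earlier results of these data known. Named regions followed a rule: the 8 strongest called intronic, the 8 strongest called independent and the 3 strongest called opposite-strand intronic regions, the 2 nearest the threshold on each side, the strongest not called of the intronic and independent classes, and each of the 8 snoRNA-binding core protein genes. Other regions named (C51F7.3, C51F7.4, R08C7.19, W01C9.6 and the box C/D genes W03C9.9 and C16D9.10) were chosen after their values were seen. Alternatives were windows of 200 and 1000 bp, IDR thresholds of 0.05 and 0.001, the other ranked list of the series, each replicate's own list, 1 region per snoRNA gene or per host gene, other class and box rules, leaving out regions on the X chromosome or near tRNA, snRNA or protein-coding 5' ends and, chosen after seeing the data, leaving out regions that repeat a stronger region's replicate values and the summit share in other lists. Python 3.11.15, pandas 2.3.3, numpy 2.4.6, SciPy 1.17.1 and matplotlib 3.10.9 were used, and the statistics were tested on simulated data.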

Additional observations from a re-analysis of the deposited data

How the results depend on the processing

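The lower called share of intronic regions than of independent regions kept its direction in the 16 alternatives that changed its counts (leaving out the region at snoRNA genes of 2 classes changed none), with log2 odds ratios between -1.28 and -0.34 and adjusted Fisher's exact p-values between 0.016 and 0.40. It passed the threshold with a window of 200 bp (-1.28, adjusted Fisher's exact p = 0.048), with an IDR threshold of 0.001 (-1.15, adjusted p = 0.016) and with 1 region per snoRNA gene (-1.26, adjusted p = 0.019). It also passed when either replicate was left out (-1.06 to -0.98), where the IDR within the other replicate's own list made the call. With 1 region per host gene the ratio was -0.65 (adjusted Fisher's exact p = 0.36). The region kept per gene or per host was not always the called one. A called region was nearest to 43 of the 104 intronic and 47 of the 85 independent genes. That gap is narrower than the one with 1 region kept per gene, and it was not tested. For hosts with any called region the direction turned, since the 44 called intronic regions lay at 91 hosts and only 1 held more than 1. That share was slightly above the 43.8% of independent regions. It was not among the alternatives and was not tested. C/D-type against H/ACA-type regions kept its direction and missed the threshold in its 11 alternatives, with the highest ratio, 2.19, at a window of 200 bp (adjusted Fisher's exact p = 0.081), 1.80 with 1 region per gene and the lowest, 0.50, with shorter windows for the box motifs. Within the intronic class alone the C/D-type share was the lower, 25% against 31.0%. Same-strand against opposite-strand intronic regions passed without replicate 2 (-1.51, adjusted Fisher's exact p = 0.038; -1.51 to -1.46 when either was left out) and with 1 region per gene (-1.83, adjusted p = 0.035). The comparison of regions with against without a protein-coding 5' end turned its direction with a window of 200 bp (-0.20) and without replicate 1 (-0.18; -0.18 to 0.12 when either was left out), in neither case past the threshold. The cause of these changes was not tested. The share of snoRNA genes with a called region, 33.2%, was 26% with a window of 200 bp, 40.2% with 1000 bp, 39.0% at an IDR of 0.05, 27.7% at 0.001 and 28.0 to 28.6% with either replicate left out. The median signal's percentile in the list, 79.9 for intronic and 91.0 for independent regions, was 92.5 and 97.9 with a window of 200 bp, 76.4 and 83.3 with 1000 bp, 80.7 and 89.4 in the other ranked list, and 84.6 and 97.0 with 1 region per gene. With either replicate left out it was 86.2 to 87.7 for intronic and 89.2 to 93.1 for independent regions. Of 75 percentiles of the 25 named regions in other lists, 36 moved by more than the spread between replicates. No paired analysis was possible because there is 1 group.

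Limits are that no control library and no read totals were used here, 2 libraries in 1 condition, an H/ACA rule that also matches flanking sequence, 240 untyped genes, and upstream elements chosen on these genes. Regions within a gene or host are not independent.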
